A study of Mus musculus with 17 samples.

Results

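Chromatin accessibility was described at 5 Krüppel-like factor genes, Klf2, Klf3, Klf4, Klf6 and Klf13, in 3 stages of the mouse B lineage: naive B cells (nB), B cells of germinal centers (GCB) and plasma cells of the bone marrow (BMPC). The members are the accessible regions whose nearest transcript or nearest transcription start belongs to 1 of these genes. There were 86 such regions among 66177 in the whole set, of which 18 belonged to Klf2, 15 to Klf3, 4 to Klf4, 7 to Klf6 and 42 to Klf13. Assignment was by distance, so a region is given to a gene without evidence that it acts on it. For 5 regions the assignment covered the main transcription start (the start region), 19 lay in the gene body, 30 upstream and 15 downstream. The other 17 lay in or nearest the transcript of a neighbouring gene, including 8 in introns of Eps15l1 beside Klf2 and 6 in or nearest Otud7a beside Klf13.

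Krüppel-like factors bind DNA through C-terminal zinc fingers that recognise CACCC boxes and related GC-rich elements, and their remaining sequence recruits activators or corepressors. In lymphocytes several of them are associated with the resting state: Klf2 holds cells in quiescence and controls receptors used in lymphocyte trafficking, and Klf4 restrains cell division in B cells. Klf3 is a repressor that works through CtBP corepressors, Klf6 is a broadly expressed factor that responds quickly to stimulation, and Klf13 is a factor of lymphocytes that can recruit Sin3a. FoxO factors act upstream of Klf2 and Klf4 and are restrained by antigen receptor signalling through PI3 kinase.

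The assay was ATAC-seq, in which a transposase cuts open chromatin and the cut fragments are sequenced. Dnmt3-sufficient mice (C) were Dnmt3a fl/fl Dnmt3b fl/fl, so the floxed alleles were present without Cre, and Dnmt3-deficient mice (KO) were Dnmt3a fl/fl Dnmt3b fl/fl with a Cre that acts in B cells, all on a B6;129S4 background. The Cre allele was carried by KO mice alone, so the effect of the deletion and that of the Cre allele cannot be told apart. nB were sorted as B220+ Fas- GL7- cells and GCB as antigen-binding B220+ Fas+ GL7+ PE+ cells from lymph nodes, while BMPC were CD138+ cells from bone marrow. GCB and BMPC were taken at day 30 after immunization with phycoerythrin (PE). The 16 libraries were 3 nB C, 2 nB KO, 2 GCB C, 4 GCB KO, 3 BMPC C and 2 BMPC KO. Each nB or BMPC library was labelled as a separate mouse and each GCB library as a pool of mice. All nB libraries were male and all BMPC libraries female, so sex and cell type cannot be told apart between nB and BMPC, whereas GCB held both. The labels give no day after immunization for nB, and the paper describes nB as cells of unimmunized mice. According to the paper, PE was given in complete Freund's adjuvant. Immunization with adjuvant and cell type therefore cannot be told apart in any comparison of nB with GCB or BMPC.

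Values are in RPPM, the reads in a region after every library was scaled to the same total of reads in peaks. Reads in regions numbered 4104875 to 6079018 in nB, 907959 to 2280954 in GCB and 5357687 to 8232313 in BMPC, so that 3 reads correspond to between 0.364 and 3.30 RPPM and the values of GCB are the least precise. Mitochondrial reads were 7.43% to 10.1% of the reads in regions in GCB and 2.56% to 4.59% in the other cell types. At start regions, the B cell markers Ms4a1 and Pax5 averaged 80.2 and 40.3 RPPM in nB C, 85.7 and 24.3 in GCB C, and 13.4 and 2.84 in BMPC C, and the naive B cell marker Fcer2a averaged 42.4, 14.3 and 1.20. Markers of germinal centers were less distinct: S1pr2 averaged 14.3 RPPM in nB C, 26.2 in GCB C and 39.3 in BMPC C, Fas 15.3, 20.6 and 31.2, Mybl1 65.2, 83.2 and 80.6, and Bcl6 was lowest in GCB C, at 53.8, 20.01 and 30.0. Of 5 plasma cell markers, 4 had a start region, and they summed to 154 to 172 RPPM in nB C, 113 to 115 in GCB C and 196 to 214 in BMPC C. The start region of Tnfrsf17, the plasma cell receptor BCMA, averaged 19.995 RPPM in BMPC C against 0.392 in nB C, and no start region of Sdc1 (CD138) was among those analysed. Summed over the 4 of 8 myeloid markers with a start region, the level was 18.1 to 21.5 RPPM in nB, 18.9 to 30.8 in GCB and 34.7 to 39.4 in BMPC. The 1 of 6 T cell markers with a start region, Lck, was at 6.29 to 18.6 RPPM over all libraries, and 3 of 6 erythroid markers summed to 57.1 to 62.1 in nB C, 44.4 to 51.1 in GCB C and 68.2 to 78.8 in BMPC C. Klf1, itself a Krüppel-like factor, held the largest share of this erythroid sum in nB. Its region averaged 49.5, 32.6 and 61.5 RPPM in nB C, GCB C and BMPC C. That region lies 776 bp from the Klf1 start and does not cover it. For marker and list genes a start region could lie up to 1000 bp from the start. The part of these other cells in the results below was not tested. In bulk samples fewer open cells and less open chromatin per cell cannot be told apart.

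Sequences of 200 bases are printed for the regions on which the results turn, read from mm9 on the plus strand, in lower case, with motif matches in either orientation in capitals. The motifs were CACCC, the core of the Krüppel-like element, then GTAAACA, known from FoxO factors, then GGAAGT, known from ETS factors, and finally CAGCTG, an E-box. The first pair are the bases before the GENCODE starts of Klf2 (chr8:74842732-74842931) and Klf3 (chr5:65194428-65194627), shown because the start region of Klf3 changed the most of the 5 genes and the Klf2 start is the reference beside it.
Klf2 promoter: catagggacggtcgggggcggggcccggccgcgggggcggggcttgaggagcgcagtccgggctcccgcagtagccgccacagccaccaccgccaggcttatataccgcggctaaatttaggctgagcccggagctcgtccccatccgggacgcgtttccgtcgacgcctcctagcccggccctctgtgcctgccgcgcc
Klf3 promoter: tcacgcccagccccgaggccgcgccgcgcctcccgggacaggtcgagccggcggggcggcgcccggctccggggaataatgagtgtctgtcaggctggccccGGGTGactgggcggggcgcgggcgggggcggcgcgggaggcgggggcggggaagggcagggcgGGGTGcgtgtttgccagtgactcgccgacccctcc
The next 3 are the middles of the Klf2 and Klf3 regions and of the upstream Klf13 region with the lowest log2 fold change from nB C to GCB C: chr8:74884045-74884244 in an intron of Eps15l1, chr5:65256007-65256206 downstream of Klf3 and chr7:71187944-71188143 upstream of Klf13.
Klf2 distal: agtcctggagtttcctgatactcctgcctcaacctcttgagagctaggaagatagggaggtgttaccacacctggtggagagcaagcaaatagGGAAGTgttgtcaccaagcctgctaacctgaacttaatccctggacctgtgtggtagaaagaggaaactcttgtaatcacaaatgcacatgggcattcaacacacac
Klf3 distal: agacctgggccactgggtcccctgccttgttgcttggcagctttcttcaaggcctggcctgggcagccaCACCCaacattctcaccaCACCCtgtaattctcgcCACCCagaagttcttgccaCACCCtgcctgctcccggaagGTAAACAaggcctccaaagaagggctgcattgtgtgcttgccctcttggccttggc
Klf13 distal: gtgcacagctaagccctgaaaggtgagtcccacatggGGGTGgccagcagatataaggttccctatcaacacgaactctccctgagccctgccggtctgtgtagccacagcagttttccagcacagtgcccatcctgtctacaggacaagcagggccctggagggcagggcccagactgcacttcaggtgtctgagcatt
The last 3 are regions with other patterns, chosen for their values. They include chr7:71177936-71178135 upstream of Klf13 (most accessible in BMPC) and chr13:6134747-6134946 far downstream of Klf6 (most accessible in GCB). The other is chr7:70947830-70948029 between Klf13 and Otud7a, which differed between genotypes in GCB in some tests and not in others.
Klf13 BMPC-high: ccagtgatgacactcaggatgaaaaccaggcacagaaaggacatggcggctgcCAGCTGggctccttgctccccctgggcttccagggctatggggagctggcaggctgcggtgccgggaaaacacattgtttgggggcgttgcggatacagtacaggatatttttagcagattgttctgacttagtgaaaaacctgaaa
Klf6 GCB-high: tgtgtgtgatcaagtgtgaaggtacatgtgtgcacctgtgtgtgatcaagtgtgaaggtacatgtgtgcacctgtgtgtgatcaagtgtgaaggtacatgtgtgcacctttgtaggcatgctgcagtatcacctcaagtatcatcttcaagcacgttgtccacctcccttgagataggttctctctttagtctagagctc
Klf13 genotype: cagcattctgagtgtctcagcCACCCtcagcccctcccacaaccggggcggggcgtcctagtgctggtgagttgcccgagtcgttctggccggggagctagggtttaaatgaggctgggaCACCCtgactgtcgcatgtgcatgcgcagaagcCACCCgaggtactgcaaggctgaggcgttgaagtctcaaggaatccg
The Klf2 promoter window held none of the 4 motifs, and that of Klf3 held 2 CACCC boxes. Over the whole start regions the counts of CACCC were 8 for Klf2 and 10 for Klf3, so the difference is one of the 200-base windows. The Klf3 distal window held 4 CACCC boxes and 1 GTAAACA, and the Klf13 window between Klf13 and Otud7a held 3 CACCC boxes. The Klf6 window holds a 36-base unit 3 times in tandem, over 108 bases. A CACCC match was found in 42.3% and a GTAAACA match in 2.77% of 200-base windows at the middle of all regions whose sequence could be read, so a window with CACCC is common and one with GTAAACA is not. A match is a description of the letters and not a bound site.

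The question of the cell type comparisons was how accessibility at these genes changes as naive B cells become germinal center or plasma cells. At the 5 start regions, Klf3 fell steeply in GCB and not in BMPC, Klf2 and Klf4 were lower in both by less than 2-fold, and Klf6 and Klf13 differed little. A region was called different when the Benjamini-Hochberg adjusted p of limma, fitted on log2(RPPM + 1) over all regions, was at most 0.01 and the change at least 2-fold.

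The Klf3 start region (chr5:65193822-65195141) is annotated as promoter, exon, intron and 5′ UTR. Its RPPM was 91.1, 89.9 and 90.6 in nB C, 93.8 and 83.4 in nB KO, 29.5 and 30.9 in GCB C, 23.1, 27.4, 19.3 and 33.6 in GCB KO, 81.2, 81.7 and 89.999 in BMPC C, and 81.0 and 90.9 in BMPC KO. All 6 GCB libraries thus lay below every nB and BMPC library, with a wide gap. The log2 fold change from nB C to GCB C was -1.55 ± 0.15 (SE, adjusted p = 3e-09), a 3.00-fold fall of the means. From GCB C to BMPC C the level was 2.79-fold higher (log2 fold change 1.45 ± 0.15, adjusted p = 5.2e-09), and BMPC C differed from nB C by -0.10 ± 0.13 (adjusted p = 0.53). Of 11534 start regions in the whole set, 6.59% were called lower and 8.38% higher in GCB C than in nB C.

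A second Klf3 start (chr5:65203027-65204373), annotated as promoter inside the longer Klf3 transcript, ran parallel. This region lies outside the naming rule and was chosen after its values were seen. It averaged 35.2 ± 3.49 (SD, n = 3) RPPM in nB C, 14.6 ± 1.93 (n = 2) in GCB C and 38.3 ± 3.68 (n = 3) in BMPC C, and was called lower in GCB C than in nB C (log2 fold change -1.22 ± 0.17, adjusted p = 1.6e-06). The KO libraries gave 35.9, 15.9 and 37.1 RPPM in the same order.

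The Klf2 start region (chr8:74842489-74843250) carries the same annotation. It measured 70.4, 84.8 and 79.7 RPPM in nB C, 43.5 and 53.9 in GCB C, and 50.2, 54.6 and 54.2 in BMPC C. nB libraries did not overlap with the others, and GCB and BMPC overlapped. The log2 fold change from nB C was -0.68 ± 0.13 in GCB C (adjusted p = 0.00011) and -0.55 ± 0.11 in BMPC C (adjusted p = 0.00017), below the 2-fold limit, so neither was called. KO libraries averaged 78.0, 40.8 and 55.4 RPPM in nB, GCB and BMPC.

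The Klf4 start region (chr4:55545115-55546128) measured 92.6, 93.4 and 88.8 RPPM in nB C, 54.1 and 61.4 in GCB C, and 55.1, 46.5 and 37.5 in BMPC C. It was highest in nB, without overlap. The change was -0.66 ± 0.14 to GCB C (adjusted p = 0.00044) and -0.98 ± 0.13 to BMPC C (adjusted p = 1.6e-07), the latter a 1.97-fold fall just short of the limit. Leaving out nB C replicate 3 brought it just past the limit, as did leaving out BMPC C replicate 1, at -1.11, and quantile normalization, at -1.07. In BMPC KO the level was 58.6 ± 4.82 (n = 2) RPPM against 46.4 ± 8.81 (n = 3) in BMPC C, with an adjusted p of 0.36 for the difference.

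The Klf6 start region (chr13:5859852-5861225) averaged 119.9 ± 17.0 RPPM in nB C, 99.9 ± 1.88 in GCB C and 118.8 ± 6.89 in BMPC C, and the libraries of nB C ranged from 102 to 136. The Klf13 start region (chr7:71083264-71084776) averaged 157.9 ± 5.08, 170.6 ± 30.4 and 146.2 ± 10.4 RPPM, the GCB C libraries being 149 and 192. Neither was called in any cell type comparison. Per kilobase of region, the scale on which genes can be compared, nB C had 104 RPPM at Klf13, 103 at Klf2, 90.3 at Klf4, 87.3 at Klf6 and 68.6 at Klf3. The 5 lie between 68.6 and 104, and Klf2 and Klf13 do not differ beyond their SDs of 9.56 and 3.36. In GCB C the order was Klf13 at 113, Klf6 at 72.7, Klf2 at 63.9, Klf4 at 56.9 and Klf3 at 22.9 RPPM per kilobase, where Klf2 and its neighbours Klf6 and Klf4 lie within the SD of Klf2, 9.58. In BMPC C it was Klf13 at 96.6, Klf6 at 86.4, Klf2 at 69.5, Klf3 at 63.9 and Klf4 at 45.8, and Klf2 and Klf3 differ by less than the sum of their SDs of 3.17 and 3.75.

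**Figure D1:**
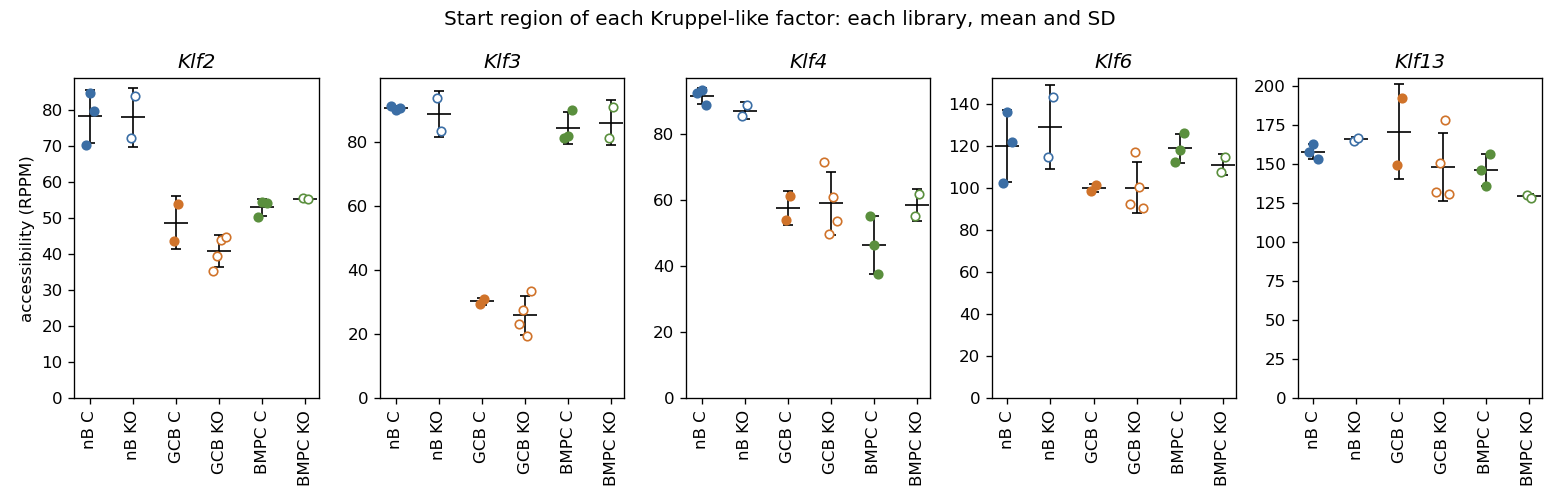
Accessibility in RPPM at the start region of each gene, one point per library, filled for C and open for KO, with the group mean and SD as bars. All GCB libraries of Klf3 lie between 19.3 and 33.6 RPPM, below every nB and BMPC library, while Klf6 and Klf13 show no such gap.

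Counting all members, most regions that changed from nB C were less accessible afterwards. From nB C to GCB C, 27 of the 86 were called lower and 5 higher, against 8.47% and 14.2% of all 66177 regions (22.7% in either direction). The median log2 fold change was -0.69 over the members and 0.05 over all regions. By gene, the lower and higher calls were 8 and 1 of 18 for Klf2, 9 and 0 of 15 for Klf3, 2 and 0 of 4 for Klf4, 1 and 1 of 7 for Klf6, and 7 and 3 of 42 for Klf13, with medians of -0.99, -1.46, -0.85, -0.25 and -0.41. A pseudocount of 5 RPPM in place of 1, which brings the changes of regions at a few RPPM under 2-fold, left 18 calls, all of them lower.

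From nB C to BMPC C, 32 of the 86 regions were called lower and 5 higher, against 20.1% and 18.0% of all regions (38.1% in either direction). The median was -0.45 over the members and 0.03 over all regions. Lower and higher calls numbered 6 and 0 for Klf2, 9 and 0 for Klf3, 2 and 0 for Klf4, 3 and 0 for Klf6, and 12 and 5 for Klf13, whose median of 0.04 was the only 1 of the 5 above 0. A pseudocount of 5 RPPM left 18 calls. This comparison and the one with GCB C share their nB C libraries, so the counts are set side by side and are not independent.

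Between GCB C and BMPC C, 12 regions were called higher and 8 lower in BMPC C, against 11.3% and 19.1% of all regions (30.4% in either direction), with a median of 0.14 over the members and -0.06 over all regions. Klf2 had 3 higher and 0 lower, Klf3 3 and 1, Klf4 0 and 0, Klf6 0 and 3, and Klf13 6 and 4. Quantile normalization gave 18 higher and 5 lower, and a pseudocount of 5 RPPM left 12 calls.

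Promoter-annotated members were few. Of 9 promoter-annotated members, 3 were called lower in GCB C and 1 in BMPC C, where 6.99% and 6.41% of all promoter-annotated regions were called lower. Of the remaining 77, 24 were called lower in GCB C and 31 in BMPC C, where 8.87% and 23.9% of all regions without promoter annotation were called lower. The difference between promoter-annotated and other members was not tested.

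**Figure D2:**
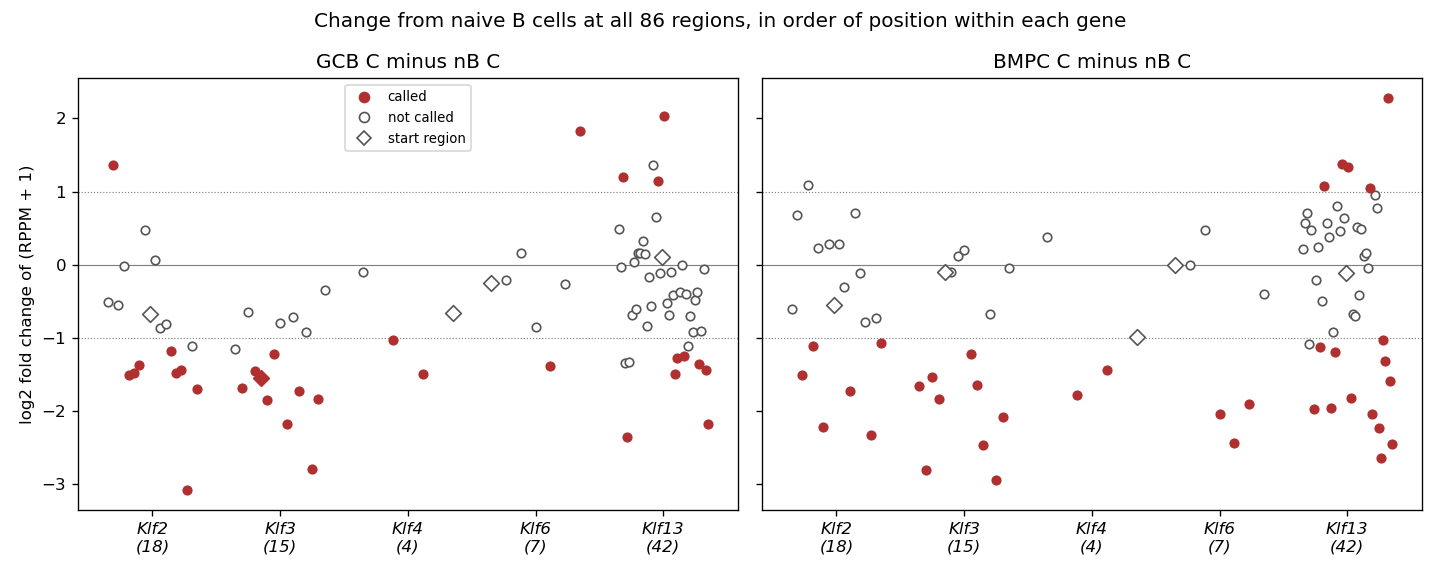
Log2 fold change of (RPPM + 1) from nB C to GCB C (left) and to BMPC C (right) for all 86 regions, placed by gene and by position within it; filled red symbols were called, diamonds are start regions and dotted lines mark 2-fold. No region of Klf3 or Klf4 was called higher in either panel, and the regions called higher in BMPC C all belong to Klf13.

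Summed over its regions, accessibility of Klf3 was 284 ± 10.1 RPPM in nB C, 93.0 ± 2.28 in GCB C and 182.5 ± 6.16 in BMPC C, a ratio to nB C of 0.327 and 0.643. Klf2 summed to 336 ± 8.74, 175 ± 9.40 and 242 ± 16.5 RPPM, with ratios of 0.521 and 0.721. For Klf4 the sums were 146 ± 5.21, 80.1 ± 9.98 and 65.8 ± 13.1 RPPM, so it alone of the 5 had its lowest mean in BMPC C, though that gap was smaller than the sum of the last pair of SDs. Klf6 summed to 222, 189 and 202 RPPM and Klf13 to 689.6, 553 and 684 RPPM, with ratios of 0.851 and 0.910 for Klf6 and 0.802 and 0.992 for Klf13. The start region made up 62.8% of the nB C sum of Klf4, 54.0% of Klf6, 31.9% of Klf3, 23.3% of Klf2 and 22.9% of Klf13.

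At Klf2 the largest fall was at chr8:74883852-74884436, a region in an intron of Eps15l1 that lies 40.9 kb past the Klf2 start. It measured 19.0, 17.0 and 15.4 RPPM in nB C, 19.2 and 17.9 in nB KO, 0.880 and 1.41 in GCB C, 4.41, 4.46, 2.63 and 2.10 in GCB KO, 3.12, 2.92 and 1.87 in BMPC C, and 1.82 and 2.05 in BMPC KO. The nB libraries stood far above all others in both genotypes. The log2 fold change from nB C was -3.09 ± 0.30 to GCB C (adjusted p = 4.7e-09) and -2.33 ± 0.27 to BMPC C (adjusted p = 2.6e-08). The last region of this cluster in Eps15l1 (chr8:74888795-74890152, chosen after its values were seen) was more accessible, at 48.2 RPPM in nB C, 14.2 in GCB C and 22.2 in BMPC C, and was called lower in both. Eps15l1 encodes an adaptor of endocytosis, and these data do not show which gene the regions serve.

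Not all Klf2 regions ran this way. A neighbour in the same gene, chr8:74873486-74874192, measured 11.9, 10.2 and 11 RPPM in nB C, 4.4 and 4.22 in GCB C, and 15.5, 23.7 and 17.6 in BMPC C. BMPC lay above both other cell types (GCB C to BMPC C 1.89 ± 0.32, adjusted p = 1.5e-05). Its fall from nB C to GCB C (-1.18 ± 0.32, adjusted p = 0.0037) was lost without nB C replicate 1 or 3 or either GCB C library, at adjusted p of 0.011 to 0.032, and with a pseudocount of 0.1 RPPM, at 0.011. Upstream, chr8:74829757-74830157 at 12.8 kb from the start went from 6.44 ± 1.71 RPPM in nB C to 1.82 ± 0.08 in GCB C and 0.572 ± 0.139 in BMPC C (-2.22 ± 0.31 to BMPC C, adjusted p = 5.3e-07). Its fall to GCB C, -1.38 ± 0.34 with adjusted p = 0.0019, did not pass without nB C replicate 3 or either GCB C library (adjusted p of 0.013 to 0.017).

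Klf3 had 4 regions of the naming rule besides its promoter. Downstream, chr5:65255752-65256461, at 42.6 kb from the nearest Klf3 start, measured 18.5, 13 and 15.3 RPPM in nB C, 21.7 and 22.0 in nB KO, 1.32 and 1.41 in GCB C, 4.41, 4.46, 0.877 and 2.80 in GCB KO, 1.43, 1.28 and 0.779 in BMPC C, and 0.607 and 0.747 in BMPC KO. It was open in nB and close to the level of a few reads elsewhere. The log2 fold change was -2.80 ± 0.36 to GCB C (adjusted p = 5.2e-07) and -2.94 ± 0.32 to BMPC C (adjusted p = 1.1e-08). At 30.8 kb from that start, chr5:65243924-65244372 fell from 7.52 ± 0.65 RPPM in nB C to 1.58 ± 0.25 in GCB C and 0.607 ± 0.610 in BMPC C, by -1.72 (adjusted p = 0.00021) and -2.47 (adjusted p = 1.1e-07) on the log2 scale.

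Upstream of Klf3, chr5:65171824-65172607 at 22.2 kb measured 22.7, 23.9 and 28.7 RPPM in nB C, 7.04 and 7.03 in GCB C, and 3.51, 2.74 and 2.02 in BMPC C. Its level stepped down from each cell type to the next, by -1.69 ± 0.29 from nB C to GCB C (adjusted p = 3.2e-05) and by -1.12 ± 0.29 from GCB C to BMPC C (adjusted p = 0.0021). The second of these was lost without BMPC C replicate 3 or either GCB C library (adjusted p of 0.014 to 0.019) and under quantile normalization (adjusted p = 0.04). Nearer the gene, chr5:65186800-65187522 at 7.24 kb averaged 38.5 ± 3.99, 13.3 ± 1.65 and 10.2 ± 2.83 RPPM in nB C, GCB C and BMPC C, and was called lower in both. So while the Klf3 promoter of BMPC C was at the level of nB C, these 4 flanking regions were lower in BMPC C than in nB C. They had been named for a large called change or for a low p between genotypes. Other flanking regions, chr5:65252259-65253221 and chr5:65257856-65258279 downstream, were not called different between nB C and BMPC C.

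**Figure D3:**
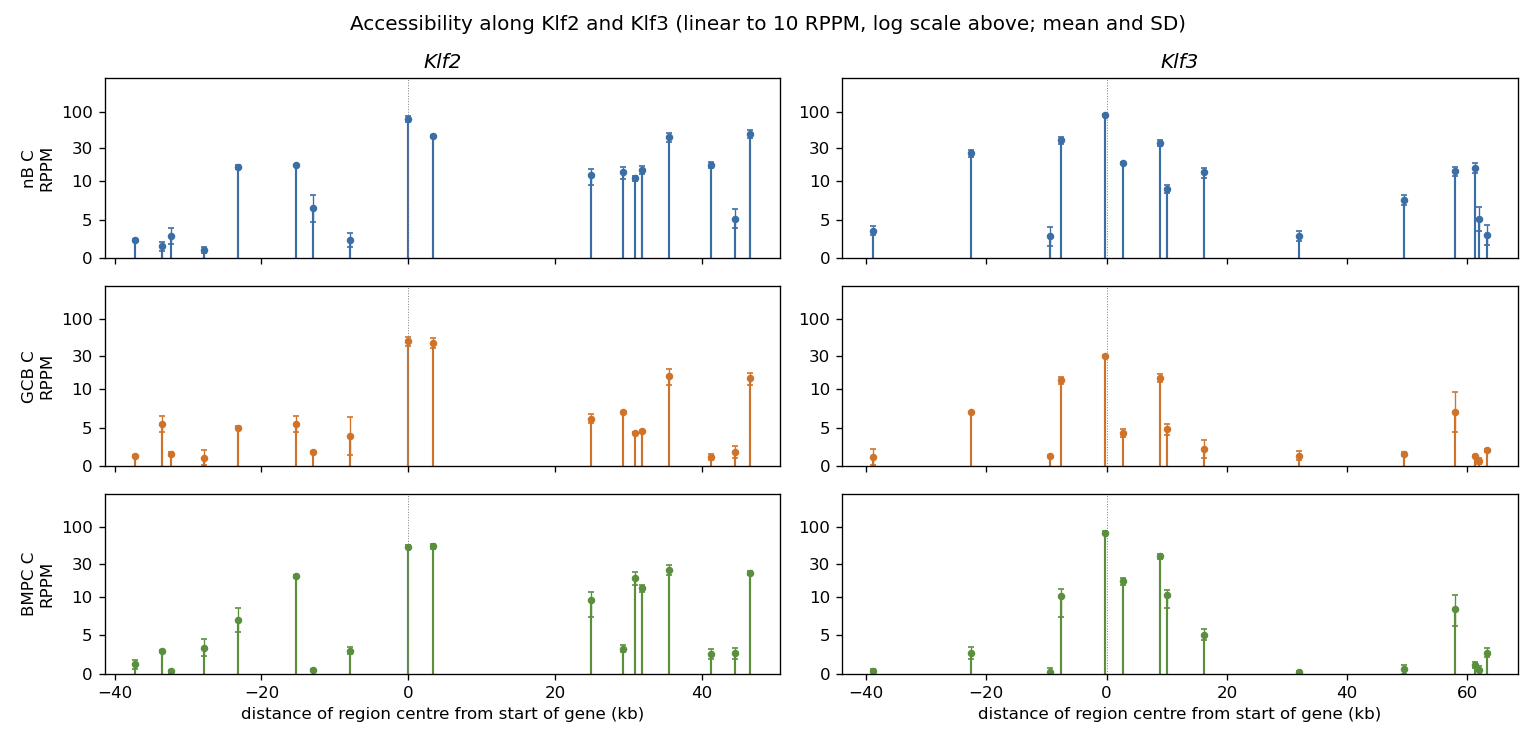
Mean RPPM with SD of each region of Klf2 and Klf3 in C libraries of nB, GCB and BMPC, against the distance of its centre from the gene start in kb; the vertical axis is linear to 10 RPPM and logarithmic above. At Klf3 the start is at 90.5 RPPM in nB C, 30.2 in GCB C and 84.3 in BMPC C, while the region centred 61.3 kb downstream goes from 15.6 RPPM in nB C to 1.36 and 1.16.

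Klf4 had only 4 regions. Besides its start, chr4:55543111-55543756, over an exon 1.59 kb from the start, measured 29.2, 34.1 and 28.5 RPPM in nB C, 8.80 and 11.7 in GCB C, and 13.7, 9.49 and 9.19 in BMPC C. nB stood above both, by -1.50 ± 0.22 (adjusted p = 3.2e-06) and -1.44 ± 0.20 (adjusted p = 3.8e-07) for GCB C and BMPC C. Downstream by 17.2 kb, chr4:55527479-55528178 averaged 21.7 ± 1.52, 10.3 ± 3.34 and 5.75 ± 1.97 RPPM, with -1.04 ± 0.27 to GCB C (adjusted p = 0.0028) and -1.79 ± 0.24 to BMPC C (adjusted p = 3.7e-07). The GCB C call was lost without nB C replicate 1 or GCB C library F2, at adjusted p of 0.013 and 0.094.

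At Klf6 the changes lay downstream and were larger in BMPC. The region 26.5 kb from the start, chr13:5887198-5888430, measured 31.7, 33.7 and 32.0 RPPM in nB C, 18.9 and 16.4 in GCB C, and 7.67, 5.29 and 8.72 in BMPC C. The 3 cell types did not overlap, and the fall from nB C to BMPC C was -2.05 ± 0.18 (adjusted p = 2.4e-10). At 45.2 kb, chr13:5905939-5906319 averaged 5.08 ± 0.80 RPPM in nB C and 1.35 ± 0.58 in GCB C, and held no read in 2 of the 3 BMPC C libraries and in both BMPC KO libraries, where 3 reads would be 0.364 to 0.560 RPPM. The fitted change to BMPC C was -2.44 (adjusted p = 5.4e-07), a number that depends on the pseudocount. Its change to GCB C (-1.39, adjusted p = 0.004) was lost under DESeq2 (adjusted p = 0.026), with a pseudocount of 0.1 RPPM (adjusted p = 0.057), and without nB C replicate 2 or 3 or GCB C library M1 (adjusted p of 0.012 to 0.062).

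The furthest Klf6 region, chr13:6134721-6134972 at 274 kb, ran the other way. It was at 0.487, 0 and 0.931 RPPM in nB C, 0.165 and 0.394 in nB KO, 4.4 and 3.75 in GCB C, 7.71, 8.91, 7.45 and 10.5 in GCB KO, 0.260, 0 and 0 in BMPC C, and 0.121 and 0.187 in BMPC KO. All GCB libraries were above all others, on 7 to 17 reads each. The change from nB C to GCB C was 1.83 ± 0.35 (adjusted p = 0.00012) and from GCB C to BMPC C -2.23 ± 0.35 (adjusted p = 5.9e-06). Its window is the one with the 36-base repeat printed above.

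Klf13 had the most regions and the most mixed changes. A region lower in both comparisons was chr7:71187724-71188363, 104 kb upstream of the start, with 21.4, 11.5 and 18.4 RPPM in nB C, 3.52 and 2.34 in GCB C, and 3.12, 2.01 and 1.71 in BMPC C. nB was well above the others, with changes of -2.18 ± 0.34 (adjusted p = 9.1e-06) and -2.45 ± 0.31 (adjusted p = 9.6e-08). At 66.9 kb upstream, chr7:71150721-71151058 was kept in GCB and lost in BMPC: 9.26 ± 2.17 RPPM in nB C, 6.81 ± 0.30 in GCB C and 0.659 ± 0.419 in BMPC C. Its change to BMPC C was -2.64 ± 0.29 (adjusted p = 7.6e-09) and to GCB C -0.37 ± 0.32 (adjusted p = 0.36).

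Other Klf13 regions opened in BMPC, and those named here were chosen after their values were seen. At 93.8 kb upstream, chr7:71177598-71178473 measured 4.39, 4.14 and 2.98 RPPM in nB C, 3.08 and 4.22 in GCB C, 20.9, 21.9 and 24.1 in BMPC C, and 28.7 and 24.3 in BMPC KO. BMPC libraries of both genotypes were above every other library, and the change from nB C was 2.28 ± 0.27 (adjusted p = 3e-08). Inside the gene, chr7:71041634-71042647 averaged 24.7 RPPM in nB C, 27.3 in GCB C and 52.6 in BMPC C (1.08 from nB C). Upstream by 60.0 kb, chr7:71143801-71144904 averaged 29.6, 17.7 and 58.4 RPPM and was called between GCB C and BMPC C (1.67) but not between nB C and BMPC C (0.96). The region that opened at 93.8 kb thus lay between those that fell at 66.9 and 104 kb.

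**Figure D4:**
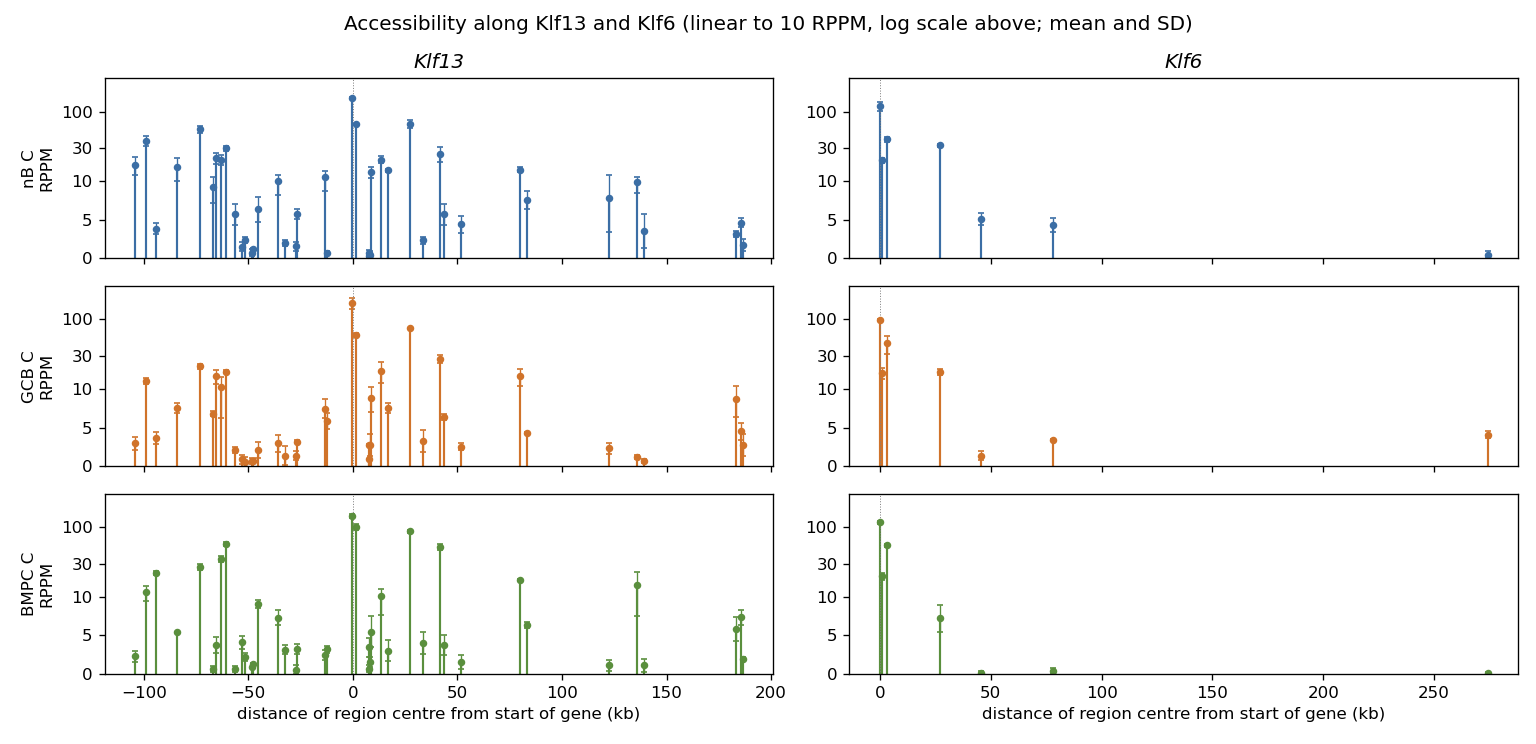
Mean RPPM with SD of each region of Klf13 and Klf6 in C libraries of nB, GCB and BMPC, against the distance of its centre from the gene start in kb; the vertical axis is linear to 10 RPPM and logarithmic above. The upstream stretch of Klf13 holds a region that is at 22.3 RPPM in BMPC C and 3.84 in nB C beside ones that fell, and the Klf6 region at 274 kb stands out in GCB C alone.

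KO cells gave the same comparisons in separate libraries. Of the 86 members, 26 were called lower and 5 higher from nB KO to GCB KO (7.84% and 18.4% of all regions, 26.3% in either direction), 25 lower and 5 higher from nB KO to BMPC KO (16.9% and 18.4%, 35.3% in either direction), and 13 higher and 15 lower from GCB KO to BMPC KO (12.1% and 19.9%, 32.0% in either direction). Quantile normalization turned the first split into 34 lower and 1 higher and the last into 7 lower and 16 higher. From nB to GCB, 24 members were called in the same direction in both genotypes, 75.0% of the C calls and 77.4% of the KO calls, where the shares over all regions were 76.9% and 66.5%. From nB to BMPC, 28 were, 75.7% of the C calls and 93.3% of the KO calls (79.9% and 86.3% over all regions). From GCB to BMPC, 17 were, 85.0% of the C calls and 60.7% of the KO calls (77.7% and 73.9% over all regions). No member was called in opposite directions. The Klf3 start fell by 1.76 on the log2 scale from nB KO to GCB KO (SE 0.14, adjusted p = 8.6e-11).

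The comparison of KO with C within a cell type asks whether loss of Dnmt3a and Dnmt3b changes accessibility at these genes. Only 1 region was called, in GCB, and none in nB or BMPC. In the whole set 0.0% of regions were called in nB, 0.0317% in GCB, all of them higher in KO, and 0.104% in BMPC, 0.0907% higher and 0.0136% lower in KO. At an unadjusted p under 0.05, limma gave 2 members in nB, 10 in GCB and 3 in BMPC, or 2.33%, 11.6% and 3.49% of the 86 against 1.67%, 11.8% and 9.55% of all regions. In nB and BMPC all 86 members differed by less than 2-fold, and edgeR and DESeq2 also called 0 of them. Over all regions the number called in BMPC depended on the test and the libraries: limma called 69, DESeq2 494, edgeR's quasi-likelihood test 1201 and its likelihood ratio test 1677, and limma called 1 without either BMPC KO library. In nB the same tests called 0, 1, 7 and 10 regions, and in GCB 21, 0, 1 and 12, where limma called 61 without GCB C library F2 and 1 without M1. The smallest adjusted p was 1 in nB, 0.0018 in GCB and 0.074 in BMPC. No member, and 0.0% of all regions, had a called difference between cell types in the genotype effect, with smallest adjusted p of 0.8 for BMPC against nB, 0.19 for BMPC against GCB and 0.52 for GCB against nB. None of the 5 start regions was called.

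The region called in GCB was chr7:70947607-70948252, 122 kb from the nearest Klf13 start and with Otud7a as its nearest transcript. It measured 1.32 and 0.937 RPPM in GCB C, on 3 and 2 reads, and 9.91, 14.6, 5.26 and 14 RPPM in GCB KO, on 9, 23, 12 and 20 reads. In nB it was at 11, 10.6 and 8.19 RPPM in C and 7.57 and 15.4 in KO, and in BMPC at 10.4, 10.9 and 23.8 in C and 21.3 and 22.0 in KO. The pair of GCB C libraries was low and all other groups, including GCB KO, were at least at 5.26 RPPM. KO exceeded C by 2.41 ± 0.32 on the log2 scale in GCB (adjusted p = 0.0018) and by 0.13 and 0.59 in nB and BMPC (adjusted p = 1 and 0.67). The difference of this effect between GCB and nB was 2.28 with an adjusted p of 0.52. The call was lost under edgeR's quasi-likelihood test (adjusted p = 0.084), DESeq2 (adjusted p = 0.32), a pseudocount of 5 RPPM (adjusted p = 0.015) and without GCB C library M1 (adjusted p = 0.051), and it rests on 5 reads in GCB C. In C cells this region was also called lower in GCB than in nB (-2.35 ± 0.34, adjusted p = 3.3e-06), and in KO cells the change was -0.07 ± 0.33 (adjusted p = 0.87).

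The members with the smallest p in the other cell types did not pass. In nB it was chr8:74834796-74835358, 7.6 kb upstream of Klf2, at 1.71, 3.39 and 2.05 RPPM in C and 1.15 and 0.590 in KO (-0.84 ± 0.36, adjusted p = 1). In BMPC it was chr5:65186800-65187522 upstream of Klf3, at 13.3, 7.66 and 9.81 RPPM in C and 15.4 and 20.2 in KO (0.76 ± 0.20, adjusted p = 0.074). The KO libraries of this region lay above all BMPC C libraries and below all nB libraries, which ran from 34.1 to 41.9 RPPM.

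**Figure D5:**
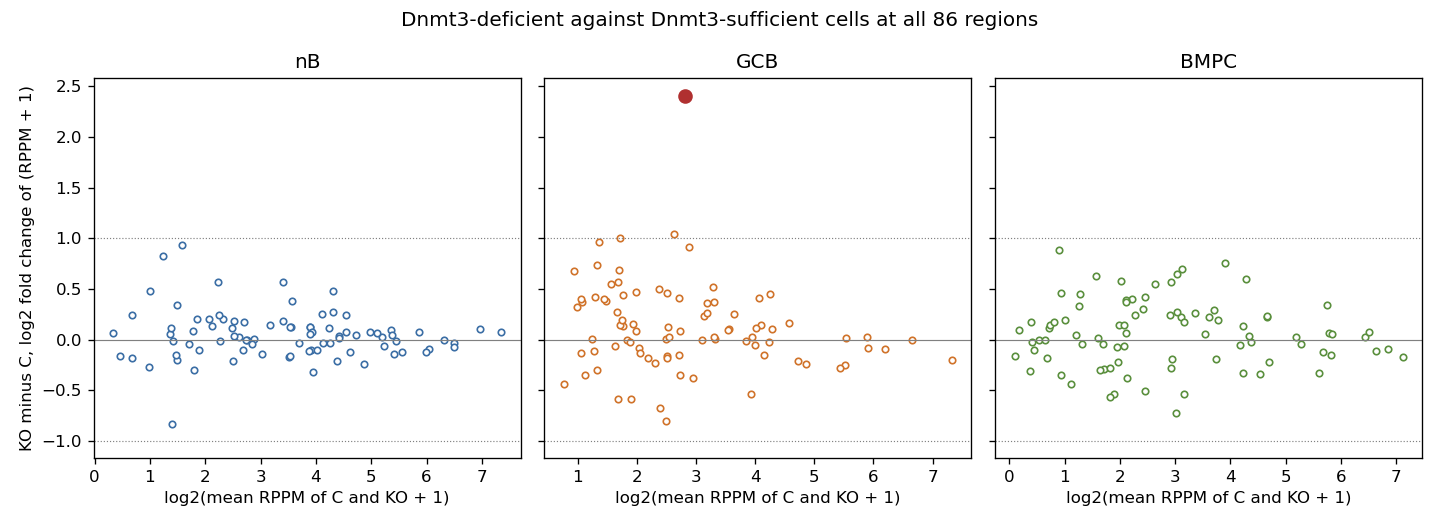
Log2 fold change of KO over C of (RPPM + 1) against the log2 mean level for all 86 regions in nB, GCB and BMPC; the filled red point was called and dotted lines mark 2-fold. The called point is the region between Klf13 and Otud7a at 2.41 in GCB, and the points of nB and BMPC stay within 2-fold.

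The regions with promoter annotation whose levels followed the Klf start regions most closely over the 16 libraries were taken for each gene. For Klf3 these were Ldb1 (r = 0.986), Pdk2 (r = 0.985) and Rps6kb2 (r = 0.979), all lowest in GCB, with Pdk2 at 52.3 RPPM in nB C, 8.22 in GCB C and 40.6 in BMPC C. For Klf2 they were Mbd2 (r = 0.972), Hist1h1d (r = 0.958) and Zfp868 (r = 0.956). For Klf4 they were Boll (r = 0.945), Ppap2b (r = 0.944) and Fam129c (r = 0.939), for Klf6 Nbeal1 (r = 0.884), Arhgap9 (r = 0.868) and Selk (r = 0.866), and for Klf13 Ube2d3 (r = 0.886), Pbx4 (r = 0.875) and Limk1 (r = 0.870). Among the Klf genes themselves r was 0.78 between the starts of Klf2 and Klf3, 0.70 between Klf2 and Klf6 and -0.13 between Klf3 and Klf13. These points share library depth and cell type, and the nearest matches among all promoter regions are high by selection.

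Start regions of related gene lists were counted for context. Of all 11534 start regions, 6.59% were called lower and 8.38% higher from nB C to GCB C, 4.49% lower and 9.55% higher from nB C to BMPC C, and 5.64% lower and 10.8% higher from GCB C to BMPC C. Of the other Klf genes, 9 of 12 had a start region, and Klf5, an activator of epithelial growth, was the only one called in C cells, rising from 1.75 RPPM in nB C to 10.7 in GCB C (2.10) and 5.93 in BMPC C (1.21). In KO cells it was at 1.82, 5.69 and 19.0 RPPM. KO exceeded C at Klf5 in BMPC by 1.66 on the log2 scale (SE 0.34, limma adjusted p = 0.018). This missed the limit of 0.01 and would pass one of 0.05. In GCB the difference was -0.82 (adjusted p = 0.31). None of the 5 Sp factors with a start region, whose zinc fingers resemble those of Klf proteins, was called in any C comparison. Among receptors of lymphocyte trafficking, Itgb7, an integrin subunit of gut homing, was called lower in GCB C than in nB C (10.7 to 2.02 RPPM, -1.97), and so was Ccr7, the receptor for T zone chemokines (60.0 to 15.3 RPPM, -1.92). In BMPC C, Cxcr5, the follicle homing receptor, was called lower than in nB C (62.6 to 7.37 RPPM, -2.96), and so was Ccr7 (-1.86). Between GCB C and BMPC C, Itgb7 was called higher (1.53) and Cxcr5 lower (-2.04). S1pr1, the receptor for egress from lymph nodes, was at 37.1 RPPM in nB C, 26.2 in GCB C and 32.3 in BMPC C and was not called in C cells (-0.49 to GCB C, adjusted p = 0.051). It was called lower from nB KO to GCB KO (39.6 to 19.2 RPPM, -1.05, adjusted p = 5.6e-05), and the difference between genotypes in this change was not called.

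Of 11 genes upstream of Klf2 and Klf4, Foxo3, a FoxO factor of resting cells, was the only one called between nB C and the others (47.1 to 22.3 RPPM in GCB C, -1.05), and Mef2a was called higher in BMPC C than in GCB C (38.0 to 80.9 RPPM, 1.07). Among 8 of 9 corepressors and partners, Crebbp, a histone acetyltransferase, was lower in GCB C than in nB C (74.9 to 30.7 RPPM, -1.26) and higher in BMPC C than in GCB C (84.7 RPPM, 1.44). Ctbp1, a corepressor used by Klf3, was higher in BMPC C than in GCB C (41.5 to 98.9 RPPM, 1.23), and Ctbp2 was higher in GCB C than in nB C (0.643 to 3.19 RPPM, 1.36), levels of a few reads at which the fitted change depends on the pseudocount. Of 14 genes of quiescence and restraint of the cell cycle, 3 were called lower in GCB C than in nB C, namely Slfn2, whose product keeps lymphocytes quiescent (-1.53), and the cyclin-dependent kinase inhibitors Cdkn1a (-1.23) and Cdkn1b (-1.10). In BMPC C, Slfn2 was lower (-1.42) and Ccnd2, a cyclin, higher (1.15) than in nB C, and Ccnd2 (1.67) and Cdkn1a (1.49) were higher in BMPC C than in GCB C. None of the genes named from these lists was called between KO and C in any cell type.

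Over whole regions, CACCC or its complement GGGTG occurred in 79.1% of the 86 members (3.96 matches per kb) and 70.3% of all regions (3.11 per kb). GTAAACA occurred in 5.81% of members and 7.69% of all regions, GGAAGT in 44.2% and 43.2%, and CAGCTG in 41.9% and 32.4%. Among the genes CACCC was most frequent at Klf4, with 6.08 matches per kb, and least at Klf6, with 1.73. In the 200 bases before 22380 protein-coding starts CACCC occurred in 45.8%.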

How the data were processed

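ATAC-seq was analysed in the 16 libraries with a column in the deposited table. The labels list 17 samples: a further BMPC KO sample, which the submitters removed for aberrant reads in peaks, was not analysed here. Per the submitters' processing notes, reads were mapped to mm9 with Bowtie (1.1.1), duplicates handled with Picard (1.127), peaks called with MACS2 (2.1.0.20140616) and differences tested with edgeR (3.12.1). The authors deposited RPM-type values (RPPM, reads scaled to the total in peaks) for 66177 merged regions, with UCSC gene annotation. Their columns of log2 fold changes, p-values and FDR values were not used.

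Groups followed the labels. Since RPPM are not counts, limma (3.58.1) with a trend was fitted in R (4.3.3) to log2(RPPM + 1) with 1 mean per group over all libraries and regions, and p-values were adjusted by Benjamini and Hochberg. The 9 comparisons and 3 differences of the genotype effect between cell types were taken from this fit. A region was called when its adjusted p did not exceed 0.01 and its change reached 2-fold. Fold changes are on the log2(RPPM + 1) scale and understate changes at low levels.

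Whole reads were recovered from the RPPM steps (100% of values whole within 0.01 of a read), and edgeR (4.0.16) quasi-likelihood and likelihood ratio tests and DESeq2 (1.42.0) on these reads were alternatives. Others were pseudocounts of 0.1 and 5 RPPM, dropping regions with a mean under 1 RPPM, quantile normalization, scaling by TMM, fitting just the groups being compared, an adjusted p of 0.05, each library left out in turn, and a block on GCB pool names. Leaving 1 library in a group assumes that it varies like the others. The fits were also run on simulated data with changes placed only in more accessible regions, which does not cover the least accessible ones. Tables and sequences were handled in Python (3.11.15) with pandas (2.3.3), numpy (2.4.6) and pysam (0.24.0), with matplotlib (3.10.9) for plots. Sequences came from mm9 and gene starts for the promoter windows from GENCODE vM1. Reads are not independent molecules, so limits from read numbers cover counting error only.

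Named regions were each gene's start region, its 3 called regions with the largest change between C cell types, the region of lowest p between genotypes in each cell type and any called between genotypes, and from other lists at most 4 called genes each. The members and lists were chosen with earlier results of these data known. Some list members, and the counts and sums that need them, are not reported here.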

Additional observations from a re-analysis of the deposited data

Results flagged for a closer look

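One value stood apart within its group. At chr8:74829757-74830157 upstream of Klf2, GCB KO library F1 was at 4.41 RPPM, on 4 reads, while the other GCB KO libraries were at 1.91, 1.75 and 2.10 RPPM. Its gap to the nearest library was 0.870 of the range of the group, past Dixon's critical value for 4 samples. This was 1 of 21 named regions tested in GCB KO, and chance gives about 1 in 20.

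At 3 named regions every KO library lay on one side of the C libraries in nB and on the other side in BMPC. At chr8:74834796-74835358 upstream of Klf2 the log2 fold change of KO over C was -0.84 in nB and 0.40 in BMPC, at levels of 0.590 to 4.48 RPPM. At the Klf3 region 42.6 kb downstream it was 0.48 in nB and -0.36 in BMPC, and at the Klf13 start region 0.070 and -0.17. None of these changes was called. The term for the difference between BMPC and nB in limma gave an adjusted p of 0.82 for the Klf2 region and of 1 for each of the others. The regions were picked for these opposite moves.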

How the results depend on the processing

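Of 109 counts of called members under other settings, 99 stayed within 1.5 times the reported count. With a pseudocount of 5 RPPM the counts were 18 for nB C to GCB C, 18 for nB C to BMPC C, 12 for GCB C to BMPC C, 15 for nB KO to GCB KO, 17 for nB KO to BMPC KO, 12 for GCB KO to BMPC KO and 0 for GCB C against GCB KO. A larger pseudocount shrinks the changes of low regions. GCB KO to BMPC KO gave 18 in a fit of those groups only, for which the cause was not tested. GCB C against GCB KO gave 0 under edgeR's quasi-likelihood test, DESeq2 and without GCB C library M1. Leaving out each library in turn gave 23 to 29, 34 to 38, 18 to 21, 21 to 35, 23 to 26 and 19 to 30 calls for the 6 cell type comparisons in the order above, and 0 to 1 for GCB C against GCB KO. A block on the pool names of GCB gave 1 call there, as without it. Pools named F2 and M1 exist for C as well as KO, and pools of the same name were labelled with the same sex. The deviations of the libraries that share a name correlated at r = 0.038 and 0.068. GCB C has 2 libraries, whose deviations mirror each other, so these values cannot show whether the pools share more than name and sex. Of 723 values of named regions under other settings, 701 kept direction and side of the threshold, 17 dropped below it, 5 passed it and 0 turned. Quantile normalization moved the median change of all regions from 0.12 to -0.07 from nB KO to GCB KO and from -0.06 to 0.09 from GCB C to BMPC C. Depth limits GCB the most, where 3 reads are 1.32 to 3.30 RPPM.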
